A study of Equus caballus with 28 samples.

Results

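Embryonic tissue and the uterine fluid (UF) that surrounded it were compared by small RNA sequencing 13 days after ovulation in the horse. The members of the comparison are the 5 embryo libraries and the 5 pregnant UF libraries, chosen by their column names, and they make up 10 of the 28 libraries of the study. Each embryo came from a Warmblood mare that had received hCG to induce ovulation and had been inseminated with fresh semen of the same stallion, and the pregnant UF came from these inseminated cycles, taken from the uterus immediately before the embryo was flushed out. The other 18 libraries hold pregnant and cyclic endometrium, cyclic UF of unbred cycles of these mares and yolk sac (YS) fluid. The embryonic tissue was what remained after aspiration of YS fluid and removal of the capsule, so the embryo proper and its membranes were not kept apart. The UF was absorbed by a tampon, eluted with 1 mL of water and cleared by centrifugation. RNA of the fluids was isolated with a serum and plasma kit and RNA of the tissues with a column kit for tissue that separates small from large RNA. The kit and the compartment can therefore not be told apart in any value below. The replicate number of a library was taken as the mare. Both groups are bulk samples, in which fewer cells of a type and less RNA per cell cannot be told apart.

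A miRNA is a short RNA that is cut from a hairpin precursor and guides a silencing complex to messenger RNAs with a matching site, usually lowering their translation or stability. At this stage the equine conceptus is a spherical vesicle that moves through the uterus, fed by the glandular secretion of the endometrium, and the endometrium must recognise it for the corpus luteum to be maintained. Early embryonic cells are known for miRNA clusters of pluripotency such as miR-302/miR-367 and miR-371/miR-372, whereas differentiated epithelium is known for let-7, and ciliated epithelium for miR-34 and miR-449. miRNAs also occur outside cells, in extracellular vesicles and bound to protein, which makes UF a possible route of exchange between embryo and mother.

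The values behind every comparison are reads counted per miRNA. The 5 embryo libraries held 28204 to 44768 such reads and the 5 UF libraries 79173 to 152860. A level of 3 reads, the least that the depth could show, came to 67.0 to 106 CPM (counts scaled to a common library total) for the embryos and 19.6 to 37.9 CPM for UF. Counting error alone enters these limits, and reads copied by PCR are not separate molecules. A median of 192 known miRNAs were detected per embryo and 210 per UF library. Embryo 1 stood apart, since 36.3% of its reads fell on miRNAs predicted in the study rather than on known ones, against 5.02% to 8.67% in the other 4 embryos and 1.42% to 2.05% in UF. Single miRNAs are given below as CPM normalized by the TMM method of edgeR, which rescales each library by the miRNAs it shares with the others. The log2 fold change is embryo over UF with its standard error. FDR is the Benjamini-Hochberg adjusted p of the edgeR quasi-likelihood test, and a call required an FDR no greater than 0.05 together with a 2-fold difference or more.

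The labelled tissues were checked against marker miRNAs known from other mammals. The 8 embryo markers (miR-302a to miR-302d, miR-367, both arms of miR-371, and miR-372) summed to between 12020 and 65295 CPM in the embryos and to between 0 and 25.3 CPM in pregnant UF, where 5 of the 8 had no read. In cyclic UF, with no embryo in the uterus, the same sum lay between 0 and 32.2 CPM. Markers of ciliated epithelium summed to between 402 and 1401 CPM in the embryos and to between 47794 and 71398 CPM in UF. The 5 leukocyte markers summed to between 48.3 and 193 CPM in the embryos, where miR-142-3p and miR-150 had no read, and to between 1714 and 2791 CPM in UF. The 4 red blood cell markers lay at 112 to 314 CPM in the embryos, with miR-144 at 0, and at 519 to 3246 CPM in UF. The sums of these 4 marker lists did not overlap between the groups. Markers of uterine epithelium summed to between 93710 and 131812 CPM in the embryos and to between 65482 and 90675 CPM in UF, the embryos being higher without overlap. The higher sum was carried by miR-200b, at 51198 to 89436 CPM in the embryos and 15400 to 26393 CPM in UF. Of the other markers miR-429 was higher, miR-200c and miR-205 were lower, and miR-200a and miR-141 overlapped. In YS fluid the sum was 48703 to 117864 CPM, so these markers were not particular to the uterus here. The higher sum rests on library totals, since with TMM factors the embryos ran from 55401 to 95463 CPM and UF from 82965 to 167515 CPM, with overlap. Markers of stroma and smooth muscle lay at 246 to 1135 CPM in the embryos and 364 to 8071 CPM in UF, and the endothelial miR-126 at 134 to 346 CPM and 7.42 to 316 CPM, both with overlap, which for stroma was absent with TMM factors (180 to 577 and 637 to 12516 CPM). How far the cells that these markers stand for contribute to the differences below was not tested.

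Most of the miRNAs that could be tested differed between the embryo and the fluid around it. Of 310 miRNAs tested, 212 were called, which is 68.4%. A miRNA read in a single group could pass the filter (1 CPM in 5 or more of the 10 libraries), and its direction was then fixed. In the embryo 92 were higher (29.7%) and 120 lower (38.7%). Among the 209 known miRNAs 51 were higher and 87 lower, and among the 101 predicted ones 41 were higher and 33 lower. Many predicted miRNAs have identical counts and were counted separately, and 28 of the 92 higher calls were lost without embryo 1. For 146 miRNAs (47.1%) the 5 embryos and the 5 UF libraries did not overlap, with the embryo higher for 47 (15.2%) and lower for 99 (31.9%). At an unadjusted p under 0.05 the count was 218. With the replicate number as a block, 171 were called, 58 higher and 113 lower.

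The direction of the many moderate differences depended on how the libraries were scaled. TMM multiplied the effective size of the embryo libraries by 1.37 to 2.00 and that of the UF libraries by 0.467 to 0.822. The median log2 fold change of all 310 miRNAs was -0.23 with TMM, 0.37 with the median-of-ratios (RLE) factors, 0.61 with upper quartile factors and 1.18 with library totals alone, a shift of up to 1.41. The share of calls that were higher in the embryo was accordingly 43.4% with TMM, 53.7% with RLE, 55.6% with upper quartile factors and 63.2% with library totals. All 92 calls higher in the embryo and 85 of the 120 lower ones were called in the same direction under these 4 scalings (57.1% of those tested). For known miRNAs this left 51 higher and 62 lower. TMM gave the lowest median of the 4 scalings, so a call higher in the embryo could hardly be lost under the others. That all 92 were kept is therefore no test of them, and the scalings bear on the lower calls.

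**Figure D1:**
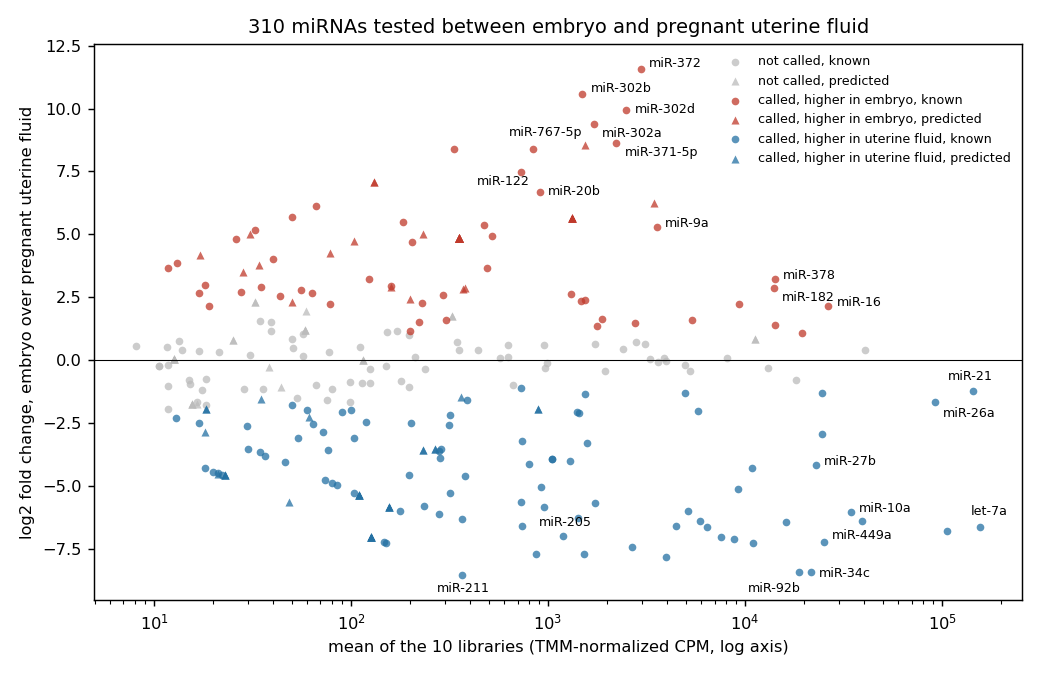
Each point is 1 of the 310 miRNAs tested. The horizontal axis is the mean of the 10 libraries in TMM-normalized CPM on a log axis and the vertical axis the log2 fold change of embryo over pregnant UF, with circles for known and triangles for predicted miRNAs and colour for the call. The miR-302 and miR-371/miR-372 miRNAs lie at the top, between 8.62 and 11.56 for those labelled, and miR-34c, miR-92b and miR-211 at the bottom, at -8.43, -8.43 and -8.54.

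The make-up of the libraries differed most in the let-7 family, which acts in differentiated cells and took between 37.1% and 43.4% of all reads in UF and between 0.467% and 1.71% in the embryos. The miR-34/miR-449 family of ciliated cells took between 4.93% and 7.22% in UF and between 0.0745% and 0.167% in the embryos. In the other direction, the miR-302/miR-367 cluster took between 0.681% and 3.04% of the reads in the embryos and at most 0.0024% in UF. The miR-183/miR-96/miR-182 cluster took between 2.25% and 6.24% in the embryos and between 0.145% and 0.335% in UF. The miR-15/miR-16/miR-195/miR-497 family, which restrains the cell cycle, took between 4.55% and 10.4% in the embryos and between 0.493% and 0.686% in UF. Shares of miR-21 overlapped, at 11.2% to 21.7% in the embryos and 8.24% to 14.4% in UF, as did those of miR-26a, at 3.68% to 10.6% and 6.03% to 9.76%. A share is relative to the other miRNAs of its library, so the large let-7 share of UF lowers all other shares there.

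**Figure D2:**
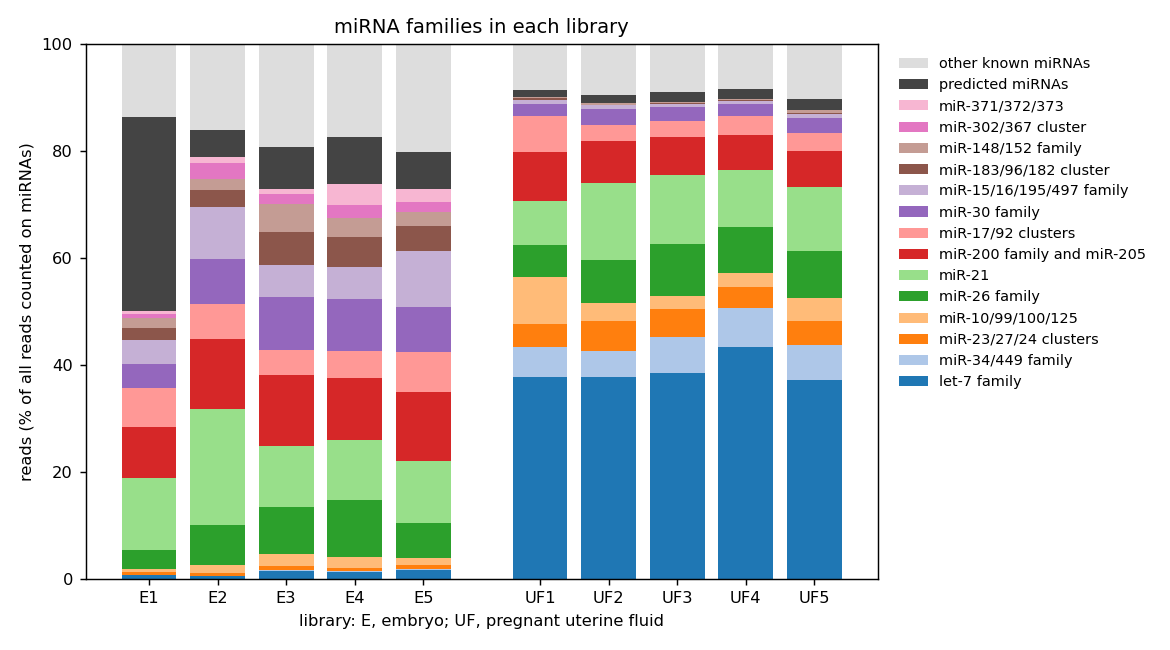
Stacked bars give the percentage of all reads counted on miRNAs in each of the 5 embryo (E1 to E5) and 5 pregnant UF (UF1 to UF5) libraries, by miRNA family, with predicted miRNAs in dark and other known miRNAs in light grey. The let-7 family fills 37.1% to 43.4% of each UF bar and at most 1.71% of an embryo bar, and predicted miRNAs fill 36.3% of E1.

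miRNAs known from pluripotent cells were abundant in every embryo and almost without reads in the fluid. All 4 tested members of the miR-302/miR-367 cluster and all 3 of the miR-371/miR-372/miR-373 cluster were called higher in the embryo. Their median log2 fold changes were 9.65 and 8.62. These miRNAs passed the filter only through the embryos, so the counts are not set against the share of all miRNAs tested. miR-302 and miR-372 are known to speed the G1 phase of embryonic stem cells and to keep them undifferentiated. miR-372 measured 2243, 6421, 2769.7, 10939.5 and 7292 CPM in embryos 1 to 5 and had no read in any UF library. Its 1824 embryo reads against 0 made it at least 127-fold higher than a floor of 3 reads per UF library, with a fitted log2 fold change of 11.56 ± 0.90 (FDR 1.1e-05). Embryos 1 and 3 were the lowest and embryo 4 the highest.

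miR-302b measured 1111, 5539, 2440.0, 3455 and 2386 CPM in embryos 1 to 5, again with no read in UF, and was at least 63.8-fold higher. miR-302c was lower in level, at 209.6, 1421, 412, 754 and 530.3 CPM with no read in UF, and at least 14.2-fold higher. miR-302d and miR-302a had a single read in UF, in replicate 4 for both, beside 1532 and 1040 reads in the embryos. The normalized ratio was 1685 (exact 95% counting interval 302 to 66603) for miR-302d and 1144 (exact 95% counting interval 205 to 45228) for miR-302a. Embryo 1 was the lowest embryo for all 4 miR-302 members. miR-371-5p varied more among embryos than miR-372 did, at 817, 1258, 3000.5, 12369 and 4761 CPM, and had 3 reads in UF. The other arm of its hairpin, miR-371-3p, had 7 reads over the 5 embryos and none in UF. miR-367, the remaining member of the miR-302 cluster, passed no filter and was not tested.

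**Figure D3:**
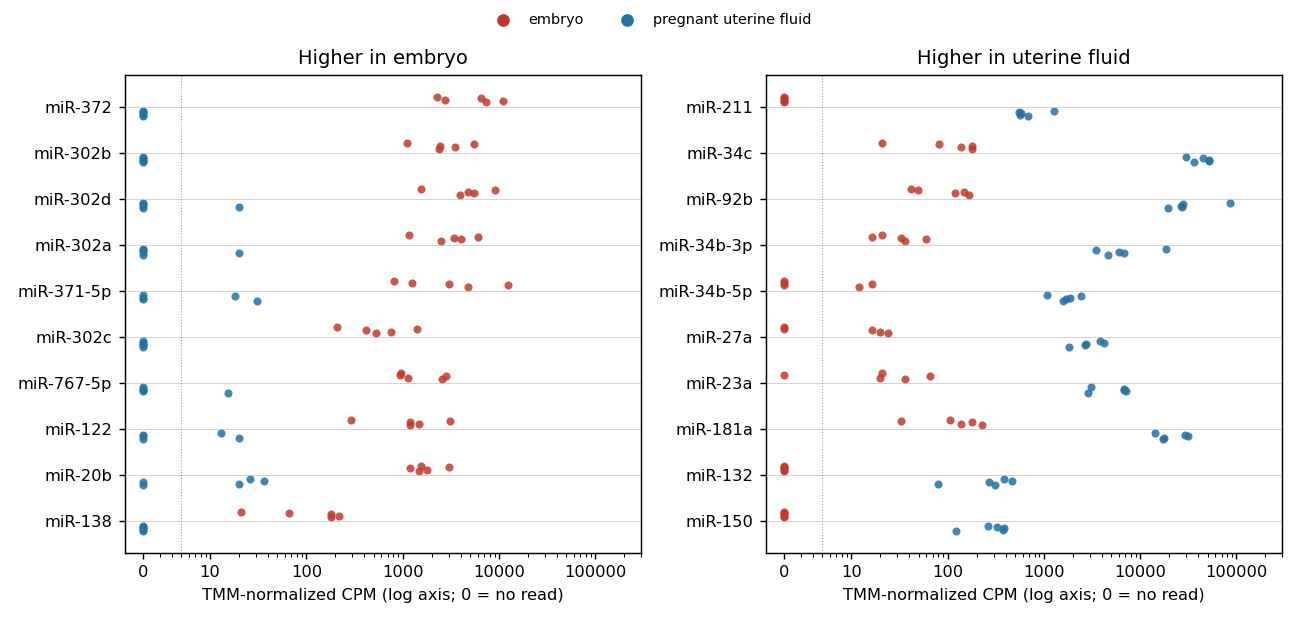
Points are the TMM-normalized CPM of single libraries on a log axis, embryo in red and pregnant UF in blue, for the 10 known miRNAs of largest log2 fold change in each direction among those called, without overlap and with a mean of at least 100 CPM in the higher group. Points left of the dotted line had no read, which holds for the 5 UF libraries of miR-372, miR-302b, miR-302c and miR-138 and for the 5 embryos of miR-211, miR-132 and miR-150.

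The list of miR-17/miR-92 miRNAs, drawn up by name, was split. Its clusters are known to drive proliferation in embryonic and tumour cells. Of 14 members tested 9 were called higher in the embryo, 1 lower and 4 not, with a median log2 fold change of 2.01. Of all miRNAs tested 29.7% were called higher and 38.7% lower. However, miR-18a, miR-18b, miR-20b and miR-363 passed the filter only through the embryos, so the count of higher calls is weak. The largest change belonged to the X-linked miR-106a/miR-363 cluster, in which miR-20b measured 1530.2, 3006, 1204, 1807 and 1458 CPM in embryos 1 to 5 and 26.0, 35.9, 0, 19.9 and 0 CPM in UF 1 to 5 (log2 fold change 6.67 ± 0.85, FDR 3.6e-05). miR-18b, miR-363 and miR-106a of the same cluster changed by 5.69, 4.70 and 2.36, miR-18b with 29 embryo reads and none in UF. In the miR-17 cluster, miR-18a, miR-19a, miR-17 and miR-20a changed by 4.93, 2.58, 2.37 and 1.48. These 8 and miR-19b (1.65 ± 0.38) were called higher, miR-92a of the same clusters was not, and the 3 members of the miR-25/miR-93/miR-106b cluster, between -0.44 and 0.62, were not called, and the sign of miR-25 and miR-93 turned with library totals. miR-17 with miR-106a, and miR-20a with miR-20b, have near-identical sequences, and reads of such paralogs may have been shared between them.

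The member called lower was miR-92b, while the closely related miR-92a was not called. miR-92b was in the list by its name and was not placed in any of these clusters. miR-92a measured 14652, 13299, 8062, 8140.1 and 14415 CPM in embryos 1 to 5 and 19659, 17124, 9698, 14721 and 10838 CPM in UF 1 to 5, overlapping groups with a log2 fold change of -0.30 ± 0.29. Scaled by library totals the embryos were higher without overlap, at 13507 to 28886 CPM against 5410 to 11229.5 CPM in UF. miR-92b measured 41.9, 49.0, 148, 119 and 169 CPM in the embryos and 86537, 27955, 26561, 27227 and 19446 CPM in UF (log2 fold change -8.43 ± 0.65, FDR 3.9e-07). A ratio of both reads within a library is free of the scaling between libraries. miR-92a reads were between 54.3 and 350 times those of miR-92b in the embryos and between 0.227 and 0.613 times in UF, without overlap. UF replicate 1 held the highest miR-92b level.

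Further miRNAs of restricted expression in adult tissue were higher in the embryo. miR-767-5p, of an X-linked pair with miR-105, measured 964, 948, 2819, 1132 and 2555 CPM in embryos 1 to 5 and had 1 read in UF, a ratio of 598 (exact 95% counting interval 106.9 to 23678). Its opposite arm miR-767-3p had 22 reads in the embryos and none in UF. miR-122, which in adults is known as a liver miRNA, measured 293, 3104, 1187, 1469 and 1181 CPM in the embryos, with embryo 1 lowest, and had 2 reads in UF, a ratio of 246 (exact 95% counting interval 67.8 to 2041). miR-122 and miR-192, of intestine and liver, were called higher, while miR-194 (0.13 ± 0.59) was not. miR-192 measured 2543 ± 1347 CPM in the embryos and 982 ± 517 CPM in UF (SD, n = 5 each), with overlap, and its log2 fold change of 1.37 ± 0.53 (FDR 0.0351) was not called with the replicate block (1.36, FDR 0.0957) or without embryo 2 or any of UF 2 to 5.

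miR-9a, which is known from neural progenitors, measured 8405, 9443, 6248, 5380.4 and 5339 CPM in embryos 1 to 5 and 78.0, 484, 164, 119.7 and 46.1 CPM in UF 1 to 5 (log2 fold change 5.28 ± 0.63, FDR 2.1e-05). Every embryo was above every UF library, and UF replicate 2 was the highest of the fluid. The heart and skeletal muscle miRNAs miR-499-5p and miR-1 were also called, at log2 fold changes of 5.50 ± 0.86 and 4.00 ± 0.70, the former at 147, 605, 363, 496 and 193 CPM in embryos 1 to 5, with 2 and 1 reads in UF. miR-130b, of the miR-130/miR-301 family, varied little within a group, at 928 ± 108 CPM in the embryos and 20.5 ± 4.24 CPM in UF (SD, n = 5 each, log2 fold change 5.36 ± 0.47, FDR 1.4e-06). Its relatives miR-130a (0.13 ± 0.41) and miR-301a (1.13 ± 0.61) were not called. Scaled by library totals both were higher in the embryos without overlap. There miR-130a lay at 625 to 1663 CPM against 260 to 393 CPM in UF, and miR-301a at 177 to 483 CPM against 12.6 to 108 CPM. miR-138, known from the nervous system, had 1, 4, 11, 11 and 15 reads in embryos 1 to 5, none in UF, and was at least 2.85-fold higher.

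Among abundant miRNAs, those of the miR-183/miR-96/miR-182 cluster of sensory and secretory epithelium were called higher. These were 3 of 3, against 29.7% of all miRNAs tested, with a median log2 fold change of 2.94. miR-182 measured 12975, 22922, 35412, 29225 and 22575 CPM in embryos 1 to 5 and 5665, 3317, 2463, 2773 and 2813 CPM in UF 1 to 5 (log2 fold change 2.85 ± 0.35, FDR 2.5e-05). miR-183 changed by 3.64 ± 0.71 and miR-96 by 2.94 ± 0.75. miR-378, known from energy metabolism, measured 31609.6, 30585, 22355, 18901 and 24721 CPM in the embryos and 2131, 3120.1, 4785, 1955 and 1660.2 CPM in UF (log2 fold change 3.23 ± 0.35, FDR 8.0e-06). The groups did not overlap for miR-182, miR-183 or miR-378.

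miR-16, a brake on cyclins and on BCL2, measured 26390.2, 69943, 34555, 34069 and 50888 CPM in embryos 1 to 5 and 11174, 13538, 8373, 8457 and 7625 CPM in UF 1 to 5 (log2 fold change 2.13 ± 0.31, FDR 1.0e-04). The family to which it belongs did not move as a block, since miR-195 was called lower (-3.08 ± 0.89) and miR-15a, miR-15b and miR-497 were not called, and its median of -0.35 became 0.33, 0.56 and 1.18 with the other 3 scalings. miR-148a, known to target DNA methyltransferases, was at 15301 ± 7698 CPM in the embryos and 3244 ± 1382 CPM in UF (SD, n = 5 each, log2 fold change 2.24 ± 0.42, FDR 6.1e-04). The closely related miR-148b-3p, at 0.44 ± 0.31, was not called. Scaled by library totals it lay at 3864 to 5331 CPM in the embryos and 818 to 2109 CPM in UF, without overlap. miR-22 changed by 1.40 ± 0.42 (FDR 0.0119) with overlapping groups.

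The let-7 family was lower in the embryo without exception. All 7 tested members, miR-98 included, were called lower, against 38.7% of all miRNAs tested, with log2 fold changes between -7.04 and -6.41 and a median of -6.58, which was -5.06 with library totals. let-7 is known to promote differentiation and to be held back in pluripotent cells by LIN28. let-7a measured 1866, 1307, 4336, 3594 and 4339 CPM in embryos 1 to 5 and 286730, 351132, 339705, 366819 and 202607 CPM in UF 1 to 5 (log2 fold change -6.64 ± 0.43, FDR 9.6e-08). let-7c measured 1342, 1062, 2489, 2402 and 2206 CPM in the embryos and 270631, 287368, 169278, 170763 and 156644 CPM in UF (log2 fold change -6.79 ± 0.38), and let-7f changed by -6.42 ± 0.42. No embryo came near the lowest UF library for these members. Reads of near-identical let-7 members may have been shared among them, so the values of single members are less certain than those of the family.

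The miR-34/miR-449 family, which multiciliated epithelial cells need to build cilia, was lower in the embryo as a whole. Of 6 members 6 were called lower, against 38.7% of all miRNAs tested, with a median log2 fold change of -7.47. Of these, miR-34b-5p and miR-449b passed the filter only through UF. miR-34c measured 21.0, 81.7, 181, 139 and 181 CPM in embryos 1 to 5 and 29781, 44649, 51458, 52280.2 and 36555 CPM in UF 1 to 5 (log2 fold change -8.43 ± 0.54, FDR 9.6e-08). miR-449a measured 231, 196, 363, 397 and 470.1 CPM in the embryos and 46257, 51858, 58682, 57426 and 36033 CPM in UF (log2 fold change -7.23 ± 0.36, FDR 3.6e-08). Both arms of miR-34b gave close values, at -7.82 ± 0.65 for the 3p and -7.71 ± 0.79 for the 5p arm. miR-34a, which p53 induces in many cell types, changed least, at -3.20 ± 0.56.

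The miR-23/miR-27/miR-24 clusters, with roles in vessels and epithelium, were called lower in 5 of 5 members, against 38.7% of all miRNAs tested. Their median log2 fold change was -6.01, and miR-23a and miR-27a passed the filter only through UF. miR-27a measured 0, 0, 16.5, 19.9 and 24.1 CPM in embryos 1 to 5 and 3781, 4178, 2744, 2693 and 1845 CPM in UF 1 to 5 (log2 fold change -7.70 ± 0.72, FDR 2.2e-06). miR-23a changed by -7.42 ± 0.72, miR-23b by -6.01 ± 0.55, miR-24 by -4.31 ± 0.33 and miR-27b by -4.16 ± 0.41, so the miR-23a/miR-27a cluster changed more than the abundant miR-23b/miR-27b cluster in these estimates, a difference that was not tested. miR-181a, known from T cells and vessels, measured 105, 32.7, 181, 139 and 229 CPM in the embryos and 14124, 29210.2, 31205, 17653 and 17325 CPM in UF (log2 fold change -7.28 ± 0.54). miR-181b, miR-221 and miR-222, the last pair repressors of the cell cycle inhibitor p27, changed by -6.26 ± 0.68, -7.12 ± 0.49 and -5.85 ± 0.73. The matrix gene regulators miR-29a and miR-29c changed by -5.04 ± 0.68 and -4.62 ± 0.58.

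Of the miR-10/miR-99/miR-100/miR-125 miRNAs, miR-10a and miR-10b lie in Hox clusters and others beside let-7. Here 6 of 8 were called lower and 1 higher, against 38.7% and 29.7% of all miRNAs tested. However, miR-99a, miR-125a-3p, miR-125a-5p and miR-125b-5p passed the filter only through UF, so the count of lower calls is weak. The median log2 fold change was -3.71. miR-10a measured 776, 506, 1401, 1171 and 1326 CPM in embryos 1 to 5 and 147763, 66167, 40763, 38298 and 45994 CPM in UF 1 to 5 (log2 fold change -6.03 ± 0.52, FDR 1.0e-06). miR-10b, a close relative of miR-10a from another Hox cluster, was the member called higher, at 2662, 10979, 11309.6, 10443 and 4989.9 CPM in the embryos and 936, 4357, 997, 2613 and 4443 CPM in UF (log2 fold change 1.60 ± 0.55, FDR 0.024), with overlap. Within a library miR-10b had between 3.43 and 21.7 times the reads of miR-10a in the embryos and between 0.0063 and 0.0966 times in UF. miR-125a-5p and miR-125b-5p changed by -5.66 ± 0.80 and -4.55 ± 0.81, miR-99a and miR-99b by -3.80 ± 0.86 and -3.63 ± 0.70, and miR-100, with 2 and 9 reads, was not called.

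miRNAs of leukocytes and red blood cells were lower in the embryo. Of 7 immune-cell miRNAs tested 7 were called lower, against 38.7% of all miRNAs tested, with a median log2 fold change of -5.67. However, miR-150, miR-142-3p, miR-142-5p, miR-146a and miR-223 passed the filter only through UF, so that count is weak. miR-155, which activated lymphocytes and macrophages express, measured 41.9, 98.0, 82.4, 79.4 and 24.1 CPM in embryos 1 to 5 and 2365, 4877, 4081, 2693 and 2936 CPM in UF 1 to 5 (log2 fold change -5.67 ± 0.51, FDR 1.5e-06). miR-150, a lymphocyte miRNA, had no embryo read and 259.9, 323, 387, 379 and 123 CPM in UF, so UF was at least 5.72-fold higher. miR-146a, miR-142-5p and the myeloid miR-223 had 2, 1 and 3 embryo reads beside 228, 109 and 48 in UF. The 3 erythroid miRNAs tested were called lower, with miR-486-5p at -4.14 ± 0.60, miR-451 at -2.45 ± 0.68 with overlap, and miR-486-3p at -2.49 ± 0.87 (FDR 0.0247) with 1 embryo and 9 UF reads. Of these miR-486-5p alone kept the call under the 4 scalings, and miR-486-3p also lost it with the replicate block.

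Among miRNAs of stroma and vessels, the 4 tested ones of stroma were called lower in the embryo and those of endothelium were not called. The share called lower among all miRNAs tested was 38.7%. Of the 4, miR-199b-5p rested on 1 embryo read beside 27 reads in UF. miR-143, of smooth muscle and stroma, measured 168, 49.0, 148, 159 and 229 CPM in embryos 1 to 5 and 325, 5057, 844, 2354 and 3628 CPM in UF 1 to 5 (log2 fold change -4.00 ± 0.75, FDR 6.1e-04). UF replicate 1 was the lowest of the fluid and close to the highest embryo. The mesenchymal miR-199a-3p and miR-199b-3p share their mature sequence, so their almost equal values, at -3.93 and -3.92, count as a single measurement. The arms of the endothelial miR-126 were not called, with 33 embryo and 66 UF reads between them, and their log2 fold changes of -0.86 ± 0.75 and -0.99 ± 0.68 turned positive with library totals, at 0.59 and 0.37.

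The epithelial miR-200 family was among the most abundant in both compartments, and its members differed. Of 6 miRNAs of the miR-200 family and miR-205, 4 were called lower in the embryo, against 38.7% of all miRNAs tested, and 2 not. Their median log2 fold change of -1.67 was -0.13 with library totals, and 2 kept the call under the 4 scalings. As shares of reads the 6 together were higher in the embryos, at 9.37% to 13.2% against 6.55% to 9.07% in UF. miR-200b measured 30268, 65319.6, 51189.9, 39648 and 44632 CPM in embryos 1 to 5 and 46205, 51140.2, 31991, 25492 and 22182 CPM in UF 1 to 5, with overlap and no call (0.38 ± 0.30). miR-200c measured 9013, 7042, 3792, 3673 and 4929.7 CPM in the embryos and 67307, 49724, 35450.4, 37041 and 26471 CPM in UF (log2 fold change -2.92 ± 0.36, FDR 2.5e-05). The reads of miR-200b were between 3.36 and 13.5 times those of miR-200c in the embryos and between 0.686 and 1.03 times in UF. miR-200a was called lower at -1.33 ± 0.28, but was 0.20 with library totals and lost the call without embryo 1 or embryo 5.

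miR-205, of stratified and glandular epithelium, was nearly confined to the fluid in these 10 libraries, with 1, 1, 1, 1 and 1 reads in embryos 1 to 5 and 68, 160, 151, 203 and 148 in UF 1 to 5 (log2 fold change -6.98 ± 0.58, FDR 8.2e-07). The related miR-204 and miR-211, known from secretory and pigmented epithelium, followed the same direction. miR-211 had no read in any embryo and measured 1260.4, 556, 575, 559 and 692 CPM in UF 1 to 5, so UF was at least 14.2-fold higher. miR-204b measured 83.8, 49.0, 181, 119 and 193 CPM in the embryos and 22258, 15995, 10695, 6662 and 8193 CPM in UF (log2 fold change -6.64 ± 0.55). miR-132, which cyclic AMP signalling induces, also had no embryo read and measured 389.8, 466, 269.7, 79.8 and 307 CPM in UF, at least 5.89-fold higher.

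Several of the most abundant miRNAs had a direction that the scaling decided. miR-21, the most read miRNA of every embryo and known from growth and injury, measured 79506, 158888, 67890.4, 64049 and 58348 CPM in embryos 1 to 5 and 144320, 308419, 230399, 175790 and 145576 CPM in UF 1 to 5 (log2 fold change -1.23 ± 0.33, FDR 0.0066). The groups overlapped through embryo 2, the value was 0.26 with library totals, and the fold fell under 2 without embryo 1, 3, 4 or 5. miR-26a changed by -1.65 ± 0.31 (FDR 6.1e-04) without overlap, and by -0.15 with library totals, where it was not called. Of the 4 miR-30 miRNAs of epithelium, miR-30e was called higher at 1.08 ± 0.40 (FDR 0.0289), and the median of the family went from -0.13 to 1.37 with library totals. miR-30e was not called with the replicate block (0.97, under 2-fold) or without embryo 2 or UF 1, 3, 4 or 5. miR-30d, at -0.80 ± 0.27, did not reach 2-fold. Reads of miR-30e were between 0.839 and 3.16 times those of miR-30d in the embryos and between 0.473 and 0.593 times in UF.

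miRNAs often used as references in body fluids were not level between the compartments. miR-191a measured 2873 ± 164 CPM in the embryos and 7049 ± 3369.8 CPM in UF (SD, n = 5 each, log2 fold change -1.29 ± 0.32, FDR 0.0039), turned to 0.23 with library totals and changed by -0.95 without UF 1, under 2-fold. The arms of miR-423 parted, with the 5p arm called at -2.11 ± 0.38 and the 3p arm at 0.65 ± 0.38 not called, and the 3p arm had between 3.24 and 5.53 times the reads of the 5p arm in the embryos and between 0.386 and 0.902 times in UF. The smallest log2 fold changes among miRNAs with a mean of at least 1000 CPM were those of miR-532-5p (0.06 ± 0.49), miR-429 (-0.06 ± 0.29), miR-30c (0.06 ± 0.31), miR-151-5p (-0.07 ± 0.34) and miR-186 (0.07 ± 0.29). With library totals these 5 lay between 1.44 and 1.64, so they were level with TMM scaling and not with all scalings.

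Some lists had few calls or none, where 68.4% of all miRNAs tested were called. Of the 10 tested miRNAs of the imprinted DLK1-DIO3 locus, which placenta and embryo usually express, miR-379 (-2.05 ± 0.81) and miR-409-3p (-1.99 ± 0.59) were called lower and 8 were not called. Neither kept its call at every scaling, miR-379 lost it without any of 8 of the 10 libraries, and the 29 miRNAs of the locus with any read had 86 reads over the embryos and 244 over UF. The X-linked miR-362/miR-660/miR-532/miR-500 cluster had 1 call in 8, miR-188-5p at 2.22 ± 0.55, and the miR-424/miR-503 cluster 1 call in 2, miR-503 at 2.70 ± 0.87 with 16 and 2 reads. The metabolic miR-103/miR-107 family had 0 calls of 3 by the edgeR test, at log2 fold changes between -0.99 and 0.72, but miR-103 and miR-107a were called higher with each of the other 3 scalings (2.17 and 2.27 with library totals) and without embryo 1 (1.02 and 1.12). None of the 10 miR-506 miRNAs, known from testis, was tested, since they had 1 read in the 10 libraries together.

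**Figure D4:**
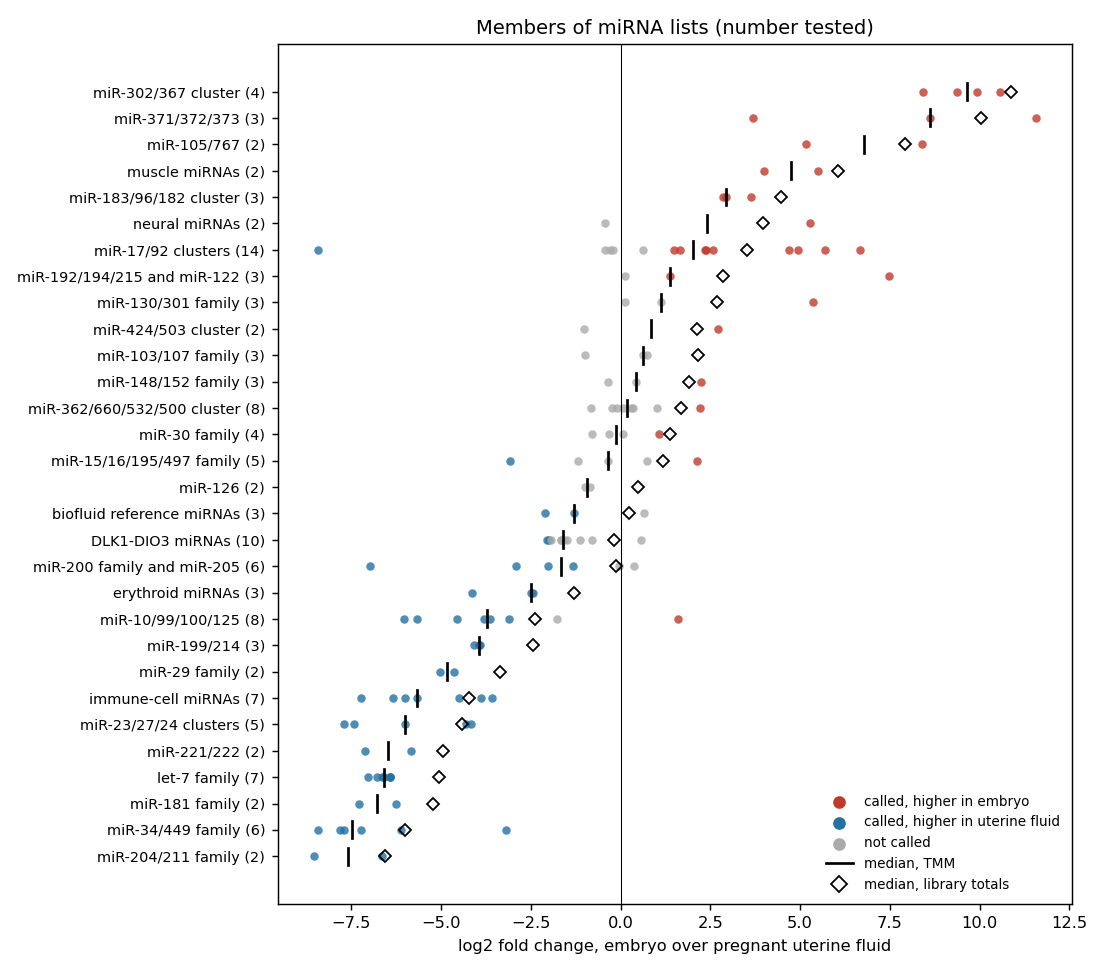
Each row is a list of miRNAs with the number of members tested in brackets, each point the log2 fold change of a member coloured by its call, the bar the median with TMM and the diamond the median with library totals. The diamonds lie to the right of the bars in every list, and the medians of the lists from miR-302/miR-367 to miR-183/miR-96/miR-182 and from miR-29 down to miR-204/miR-211 lie on the same side of 0 with both scalings.

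miRNAs that lie near each other in the genome tended to be called in 1 direction. Of the 209 known miRNAs tested, 208 were matched by name to the RefSeq annotation of a newer horse assembly, which was used only for neighbourhood because the counts were made on EquCab2.0. Within 10 kb of each other lay 26 groups with 73 mature miRNAs, and 15 of these groups held at least 2 called members. In 15 of 15 all calls of the group had the same direction, although neighbours are often cut from the same transcript and are not independent. Groups such as miR-302a to miR-302d, and miR-371 with miR-372, passed the filter only through the embryos, which fixed their direction. Of all 138 calls of known miRNAs 51 were higher and 87 lower. The groups included miR-99b, let-7e and both arms of miR-125a, with 4 lower calls between -6.41 and -3.10, and miR-99a with let-7c, at -3.80 and -6.79. Both arms of a hairpin were tested for 19 hairpins and called for 11, of which 10 had the same direction. The exception was miR-671, whose 5p arm was called higher (3.24 ± 0.78) and whose 3p arm lower (-1.78 ± 0.60). For miR-371, miR-767 and miR-142 both arms passed the filter through the same group only, which fixed their shared direction.

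Predicted miRNAs have to be read with their duplicates and with embryo 1. Of the 154 predicted miRNAs, 102 shared their counts in all 28 libraries with at least 1 other, leaving 83 distinct profiles. In the embryo-higher direction, 27 of the 41 predicted calls were lost without embryo 1, against 1 of the 51 known calls. Among them were pred-miR-48 and the 17 with identical counts, at a log2 fold change of 4.85 with and 1.27 without embryo 1, and pred-miR-87 and the 6 identical to it, at 5.63 with and 1.17 without embryo 1. pred-miR-102 measured 32888, 572, 165, 59.6 and 313 CPM in embryos 1 to 5 and 13.0, 53.8, 35.2, 19.9 and 323 CPM in UF 1 to 5, and its log2 fold change of 6.22 ± 1.84 became 1.73 without embryo 1 (FDR 0.0891) and 2.95 with the replicate block (FDR 0.068). pred-miR-133 measured 14254, 490.1, 115, 39.7 and 409.8 CPM in the embryos, and its 8.57 ± 1.92 was still called without embryo 1, at 5.23. pred-miR-21, identical in counts with pred-miR-22, was even across embryos, at 189, 327, 132, 377 and 277 CPM with no read in UF, and was at least 5.57-fold higher.

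In the direction of the fluid, the predicted miRNAs of largest change with distinct counts were pred-miR-72, pred-miR-11 and pred-miR-28. pred-miR-72, with 6 duplicates of identical counts, had no embryo read and 8, 27, 22, 5 and 21 reads in UF 1 to 5. pred-miR-11 and pred-miR-28, with 3 and 4 duplicates, had 1 embryo read each and 102 and 80 reads in UF. No sequence of a predicted miRNA was used here, so their identity was not examined.

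Detection in all libraries of a group and in none of the other was a pattern of 32 miRNAs. Read in 5 of 5 embryos and in 0 of 5 UF libraries were 13 miRNAs, 9 of them known, namely miR-372, miR-302b, miR-302c, miR-138, miR-18b, miR-767-3p, miR-184, miR-551a and miR-371-3p. Read in 5 of 5 UF libraries and in 0 of 5 embryos were 19, of which 7 were known, namely miR-211, miR-132, miR-150, miR-3065, miR-142-3p, miR-8917 and miR-342-5p. The embryos were shallower than UF, so absence from an embryo is bounded less tightly than absence from UF.

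The other 4 sample groups show where else these miRNAs were found, in CPM scaled by the library total because a common scaling was not fitted. miR-372 had a median of 8779 CPM in the embryos, 8174 in YS fluid and 0 in pregnant UF, cyclic UF and pregnant endometrium. In cyclic endometrium, with no embryo in the uterus, its median was 3.01 CPM, from 3 reads in 3 of the 4 libraries. miR-302d had 8038 CPM in the embryos, 16465 in YS fluid and 0 in each of the 4 maternal groups. The fluid inside the conceptus held these miRNAs at levels overlapping those of the embryos, and the fluid outside it did not. miR-20b had 2922 CPM in the embryos and 17205 in YS fluid, against at most 14.7 in a maternal group. miR-767-5p had 1974 CPM in the embryos and 459.6 in YS fluid. miR-138 had 304 CPM in the embryos and a median of 0 in YS fluid, where 2 of the 5 libraries held 3 reads between them, at 76.5 and 138 CPM. In YS fluid 3 reads of a library correspond to between 206 and 689 CPM, so a level like that of the embryos was at the limit of these libraries.

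Among miRNAs higher in UF, levels in the endometrium varied. let-7a had 166471 CPM in pregnant UF and 186974 in pregnant endometrium. miR-34c had 28706 and 2875 CPM, miR-92b 15978 and 1163, and miR-205 1339 and 38.2. miR-10b, called higher in the embryo than in UF, had 15011 CPM in the embryos, 1579 in pregnant UF and 29716 in pregnant endometrium. miR-9a had 10699 CPM in the embryos, 72.3 in pregnant UF and 1393 in pregnant endometrium. For both, the median of UF was the lowest of these 3 groups.

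**Figure D5:**
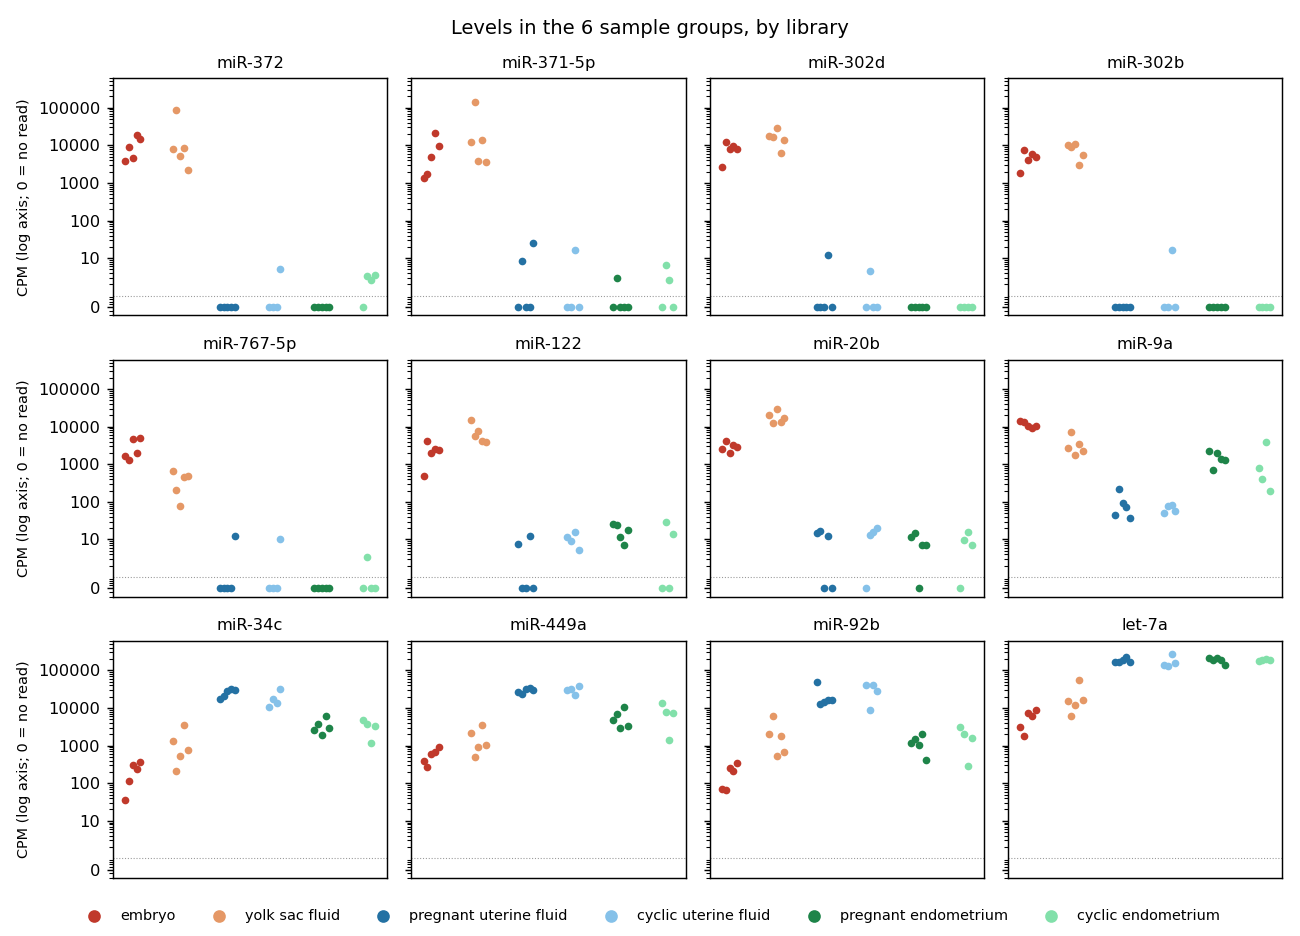
Each panel is a miRNA and each point a library, in CPM scaled by the library total on a log axis, for 5 embryos, 5 YS fluids, 5 pregnant and 4 cyclic UF, 5 pregnant and 4 cyclic endometria. Points under the dotted line had no read. miR-372, miR-371-5p, miR-302d and miR-302b are present in the embryos and YS fluid and at or near 0 in maternal samples, while miR-34c, miR-449a and miR-92b are highest in both kinds of UF.

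Whether miRNAs of the embryo changed in the fluid with pregnancy was read from pregnant against cyclic UF with the mare as block. That comparison shares the pregnant UF libraries with the one above, so its values are only set beside it. The miRNAs higher in the embryo were picked for low levels in these libraries, which works against finding them raised there. Of the 92 miRNAs higher in the embryo, 47 had enough reads in UF to be tested, and 0 were called by the edgeR test, with 0 at an unadjusted p under 0.05 and a median log2 fold change, pregnant over cyclic, of 0.19. Of all 305 miRNAs tested in UF 15 were called (4.92%) and 41 had an unadjusted p under 0.05. The log2 fold change was 0.20 for miR-20b, 0.63 for miR-9a, -1.33 for miR-130b and 0.04 for miR-182, with FDR of 0.999, 0.814, 0.552 and 0.999. miR-372, the miR-302 miRNAs and miR-371-5p had too few reads in either fluid to be tested, so an addition from the embryo below the depth of these libraries was not detectable. Of the 120 miRNAs lower in the embryo 4 were called higher in pregnant UF, miR-23a, miR-23b and 2 predicted ones with 1 set of counts. The 9 called lower were predicted miRNAs with 2 distinct sets of counts, those of pred-miR-11 and pred-miR-28.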

How the data were processed

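Small RNA libraries of 5 embryos and 5 pregnant UF samples, with 18 further libraries for levels only, were read from the tables of known and predicted mature miRNAs. The authors trimmed reads with cutadapt 1.11, counted them on miRBase horse miRNAs and predicted further ones on EquCab2.0 with miRPro, and deposited raw counts per miRNA without normalization. How reads matching several miRNAs were counted is not given in the sources used here. The table of predicted precursors held the same counts in 154 of 154 entries and was not used further. Groups came from the sample titles.

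Known and predicted miRNAs that reached 1 CPM in 5 or more of the 10 libraries were fitted together with edgeR 4.0.16 in R 4.3.3 (TMM, glmQLFit and glmQLFTest, Benjamini-Hochberg adjustment), without a block, as the study pairs only pregnant with cyclic samples. The standard error is the log2 fold change divided by the square root of F. Common biological variation was 77.1%. For pregnant against cyclic UF, 4 or more of 9 libraries were asked for and the mare was a block. Depth was 28204 to 152860 reads, so values under 3 reads are not resolved. Folds against a group without reads use 3 reads per library as a floor, and those against 1 to 3 reads an exact counting interval of 95%.

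Same-numbered embryo and UF libraries come from the same pregnancy in the study's design of paired cycles, as far as the number marks the mare. Their deviations from the group means correlated, across miRNAs, by 0.0792 on average (between -0.155 and 0.289), against -0.00779 for different numbers. The block was an alternative, beside other tests (edgeR likelihood ratio, DESeq2 1.42.0), scalings, filters, samples, duplicates, thinning and each library left out. Methods were also run on simulated data with a smaller spread than these data and with changes balanced between the directions. That run cannot show how the methods behave at the spread and scaling differences found here.

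Named are, of known miRNAs called without overlap and with a mean of at least 100 CPM in the higher group, the 10 of largest change in each direction; the 10 of highest mean in each group; of each list, the most abundant and the most changed member; 3 predicted miRNAs per direction; and the 5 of smallest change at a mean of at least 1000 CPM. Other list members are described with their list. The within-library ratios, and miR-671 and the pairs of neighbours, were chosen after values were seen. The members and the 34 lists were chosen with earlier results of these data known, and lists are described by counts and medians only. p-values measure the spread among 5 mares per group.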

Additional observations from a re-analysis of the deposited data

Results flagged for a closer look

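A sample was set apart when its gap to the nearest of the other 4 of its group exceeded 0.71 of the range of the group (Dixon's 95% limit). Of 154 values tested in the 2 groups 24 did so. For 7 of these the other 4 libraries were at 0, which sets the library with reads apart by construction, and the other 17 stand beside the about 1 in 20 that chance gives. UF 1 had 8 of them, embryo 1 had 4, UF 5 had 3, embryos 3 and 4, UF 2 and UF 4 had 2 each, and embryo 2 had 1. All values are TMM-normalized CPM unless a percentage is given.

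In embryo 1, pred-miR-133 was at 14254 (other embryos 39.7 to 490.1), pred-miR-102 at 32888 (59.6 to 572) and miR-29a at 147 (16.3 to 48.2), and 36.3% of the reads fell on predicted miRNAs (5.02% to 8.67%). Embryo 2 held miR-21 at 158888 (58348 to 79506). Embryo 3 had no miR-127 read, at 0 (49.0 to 62.9), and a single read of miR-199b-5p, at 16.5, where the others had none. Embryo 4 had the single reads of pred-miR-28 and of pred-miR-11, each at 19.9.

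UF 1 was above the other UF libraries for miR-92b at 86537 (19446 to 27955), miR-10a at 147763 (38298 to 66167), miR-34b-3p at 18516 (3479 to 6782), miR-211 at 1260.4 (556 to 692), miR-191a at 13007 (4719 to 6098), miR-30c at 12760 (5769.6 to 7400.2), miR-182 at 5665 (2463 to 3317) and miR-423-5p at 4041 (1783 to 2188). Of these 8, miR-191a is the 1 whose call UF 1 decides. UF 2 was above the others for miR-9a at 484 (46.1 to 164) and miR-532-5p at 7585 (1533 to 2943). UF 4 held the single reads of miR-302d and miR-302a, each at 19.9. UF 5 held the reads of pred-miR-133 at 30.7 and of miR-767-5p at 15.4, and pred-miR-102 at 323 (13.0 to 53.8). What sets these libraries apart was not tested.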

How the results depend on the processing

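The count of 212 calls lay between 181 and 220 when each library was left out, with 64 to 101 higher and 112 to 123 lower in the embryo, and the lowest count of higher calls came without UF 1. It was 210 with the edgeR likelihood ratio test and 192 with DESeq2, 216 with RLE and 231 with library total scaling, 220 of 454 without a filter, 234 with 28 libraries in a single fit, 213 by FDR alone, 170 of 254 with identical miRNAs counted once, 143 of 209 with known miRNAs only and 186 of 257 after thinning. filterByExpr, which kept 130 miRNAs, left 101 calls, 49 higher and 52 lower. Library totals gave 146 higher calls, known miRNAs alone 64 higher and 79 lower calls (51 and 87 for the same 209 when fitted with the predicted ones), and the replicate block 58 higher calls. The block ended the calls of pred-miR-102, miR-192 and miR-30e and of no other miRNA named by the rules above. Among miRNAs described only with their list, miR-486-3p also lost its call. The 0 calls among embryo-higher miRNAs in UF stayed at 0 under each alternative, without the block and with each library left out included.

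Of 1702 values of named miRNAs under the alternatives 1569 kept direction and side of the threshold, 69 lost and 19 gained the call, and 45 changed sign, 42 of them in miRNAs not called and 3 in miR-21, miR-191a and miR-200a, which were called. miR-429 became 0.63 with DESeq2, 0.63 with RLE, 0.85 with upper quartile, 1.46 with library totals, 0.25 without a filter, 0.43 with filterByExpr, 0.019 with 28 libraries, 0.27 with duplicates counted once, 0.42 with known miRNAs only and 0.67 after thinning. miR-151-5p became 0.53, 0.53, 0.87, 1.44, 0.21 and 0.38 with the first 6 of these, 0.23 with duplicates counted once, 0.37 with known miRNAs and 0.70 after thinning. miR-126-5p became 0.042 with upper quartile, 0.59 with library totals and 0.17 after thinning, and miR-107b 0.029 and 0.57 with the first 2 of these. With library totals miR-126-3p was 0.37, miR-21 0.26, miR-191a 0.23 and miR-200a 0.20. With each library left out, miR-30c lay between -0.035 and 0.47, miR-532-5p between -0.12 and 0.68, miR-429 between -0.18 and 0.38 and miR-151-5p between -0.17 and 0.43. The scalings differ by construction in the level taken as unchanged, and which is right was not tested. miRNAs of a few reads per library are limited by the depth of the embryos.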

Other observations

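Known miRNAs outside the lists also parted embryo from fluid, and they were picked here after their values were seen. miR-708 measured 41.9, 0, 0, 0 and 24.1 CPM in embryos 1 to 5 and 936, 1363, 2134, 2035 and 845 CPM in UF 1 to 5 (log2 fold change -6.60 ± 0.94, FDR 8.0e-05). miR-31, an epithelial miRNA, measured 461, 474, 626, 576 and 409.8 CPM in the embryos and 14293, 25659.8, 19736, 15499 and 14373 CPM in UF (log2 fold change -5.13 ± 0.31, FDR 8.7e-08). miR-328 changed by -5.80 ± 0.80, with 2 embryo reads beside 149 in UF, and miR-1180 by -3.30 ± 0.41. In the other direction miR-7, of endocrine and neural cells, measured 1866, 4085, 1863, 1648 and 1820 CPM in the embryos and 117, 609.7, 481, 339 and 292 CPM in UF (log2 fold change 2.61 ± 0.51, FDR 7.5e-04). miR-184 and miR-551a had 16 and 8 reads over the embryos and none in UF. The groups did not overlap for any of these 7.

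The Hox-linked miR-196a and miR-196b went opposite ways, like miR-10b and miR-10a. miR-196a was called higher in the embryo, with 4, 10, 5, 3 and 13 reads in embryos 1 to 5 and 0, 2, 0, 1 and 2 in UF 1 to 5 (log2 fold change 2.68 ± 0.70, FDR 0.00506). miR-196b was called lower, with 2, 3, 1, 4 and 3 and 8, 50, 7, 31 and 62 reads (log2 fold change -3.53 ± 0.81, FDR 0.00236). The closely related miR-190a and miR-190b also parted, at 2.89 ± 0.99 with 17 and 2 reads and -5.29 ± 0.93 with 4 and 207 reads. Each of these 4 calls held under the 4 scalings, which bears mainly on the lower ones, and miR-190a overlapped between the groups.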
